A study of Mus musculus with 30 samples.

Results

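The genes described here are 6 members of the cell death machinery of the mouse colon: the gasdermins Gsdmc2, Gsdmc3, Gsdmc4 and Gsdmd, and the inflammatory caspases Casp1 and Casp4. They were picked by name, with earlier results of these data known, and are 6 of the 55487 genes counted. All 6 had reads in each of the 30 libraries and passed the filter on low counts. RNA was taken from the colon of 30 mice, 5 of each of 6 genotypes, and read near the 3′ end of each transcript. The controls are labelled WT. Xbp1 was deleted in intestinal epithelial cells (IEC) in XBP1IEC-KO, here called the Xbp1 knockout, and Casp8 in Casp8IEC-KO, the Casp8 knockout. XBP1IEC-KO;Casp8IEC-KO lacks both, and is called the double knockout. Both triple knockouts carry the deletions of the double knockout and a further one, in XBP1IEC-KO;Casp8IEC-KO;TNFR1IEC-KO (the TNFR1 triple knockout) of TNFR1 in the same cells, and in XBP1IEC-KO;Casp8IEC-KO;MLKLKO (the MLKL triple knockout) of MLKL, for which no cell type is named. No age or Cre line was given in the sources used here, and the RNA is of colon as a whole, so RNA of the deleted epithelium is mixed with that of cells that keep the genes.

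Gasdermins are pore-forming proteins. A protease cuts them, the amino-terminal part moves into the plasma membrane and opens pores there, and the cell swells and bursts, which is called pyroptosis. Gsdmd is cut by caspase-1, which inflammasomes activate and which also matures interleukins of the Il1 family, and by caspase-11, the product of mouse Casp4, which binds bacterial lipopolysaccharide in the cytosol. Gasdermin C is a family of neighbouring copies in the mouse, is expressed in the epithelium of the gut, rises in type 2 immune responses to worms and can be cut by caspase-8. Caspase-8 starts apoptosis and holds back necroptosis, in which MLKL opens the membrane. TNFR1 is the receptor of tumour necrosis factor, XBP1 is a transcription factor of the unfolded protein response, and the design asks what loss of TNFR1 or of MLKL changes in a colon whose epithelium lacks XBP1 and caspase-8.

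In GRCm38, Gsdmc2 lies at chr15:63824346-63845177, Gsdmc3 at chr15:63857724-63878558 and Gsdmc4 at chr15:63891264-63912297, all on the minus strand, and the 3 genes follow each other along the chromosome. Gsdmd lies at chr15:75862327-75867408 on the plus strand. Casp1, at chr9:5298517-5307265, and Casp4, at chr9:5308828-5336783, are neighbours on the plus strand. No other annotated gene overlaps any of the 6.

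How far the gasdermin C genes can be told apart depends on their sequences. Over 1443 coding bases each, Gsdmc2 and Gsdmc3 are 97.1% identical, and Gsdmc4 is 92.8% identical to either. The annotated genes run on past their stop codons, to positions 63824346, 63857724 and 63891264. Reads near the 3′ end can therefore lie beyond the coding bases and need not cover the stretch shown. The last 120 coding bases, which end at the stop codon, are printed with capitals at the 7 positions where the 3 copies are not alike:
Gsdmc2, chr15:63824878-63824997, minus strand: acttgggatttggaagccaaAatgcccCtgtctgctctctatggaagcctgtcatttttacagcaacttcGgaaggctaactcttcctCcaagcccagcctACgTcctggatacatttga
Gsdmc3, chr15:63858271-63858390, minus strand: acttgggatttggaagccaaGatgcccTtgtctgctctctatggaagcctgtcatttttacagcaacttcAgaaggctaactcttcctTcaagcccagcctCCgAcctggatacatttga
Gsdmc4, chr15:63891804-63891923, minus strand: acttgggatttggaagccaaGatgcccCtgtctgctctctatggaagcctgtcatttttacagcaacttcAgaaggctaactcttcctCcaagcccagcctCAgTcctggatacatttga
In this stretch Gsdmc2 and Gsdmc3 each hold a base of their own at 3 of the 7 positions, and Gsdmc4 at 1.

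A read can be assigned only where the copies differ. Of the stretches of 50 bases in the last 400 bases of the coding transcripts, 42.7% to 69.5% of those of Gsdmc2, depending on the transcript, occur also in another gasdermin C gene. For Gsdmc3 the share is 26.5% to 48.7%, for Gsdmc4 it is 9.12%, and for Gsdmd, Casp1 and Casp4 it is 0%. With stretches of 100 bases it is 18.6% to 30.2% for Gsdmc2, 10.6% to 18.9% for Gsdmc3 and 0% for Gsdmc4. Reads of Gsdmc2 and Gsdmc3 can therefore be shared or lost, and the 3 genes are also given as 1 sum, which does not depend on how reads were divided among them. A read dropped because it fits several copies is missing from the sum as well. The deposited values of all 6 genes were whole numbers in every library, so no divided read shows in them. Over all libraries Gsdmc4 had 87559 reads, Gsdmc2 had 7637 and Gsdmc3 had 7710. The fourth protein-coding copy, Gsdmc, had 0 reads in all 30 libraries, and 3 reads, the limit that a count of 0 allows in 1 library, would be 0.490 to 0.864 CPM.

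Levels are in CPM, reads of a gene scaled to the same library size after TMM normalization. A 3′ tag protocol gives about 1 read position per transcript, so levels of different genes are not scaled by length. Library totals were 3516792.6 to 5823059.7 reads, and 1 read was worth about 0.235 CPM in the median library. Casp8 was 51.5 to 58.7 CPM in WT and 12.2 to 46.3 CPM in the 4 genotypes labelled as lacking it, but also 21.1 CPM in the library labelled Xbp1 knockout mouse 2, against 45.0 to 66.7 CPM in the other 4 of that label. Mlkl was 1.30 to 4.38 CPM in 4 libraries labelled MLKL triple knockout and 10.7 CPM in that of mouse 5, and 5.72 to 9.88 CPM in WT. Xbp1 was not lower in the double knockout (70.4 to 140 CPM) than in WT (52.8 to 100.2 CPM), and Tnfrsf1a was 52.4 to 75.4 CPM in the TNFR1 triple knockout against 65.0 to 78.9 CPM in WT. Which exons were deleted is not stated, and a 3′ tag outside them checks nothing. Double knockout mouse 1 had 10.3% mitochondrial reads, the least of all libraries, which otherwise reached 22.9%. All 8 epithelial markers listed were detected in every group. Xist and Y-linked genes put 1 female among the 5 WT mice and 1 among the double knockout mice, 3 in either single knockout, 4 among the TNFR1 triple knockout mice and 5 among those of the MLKL triple knockout.

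Gsdmc4 was the most abundant of the 6 genes in all 6 genotypes. It was at 804.5, 775, 711.5, 781 and 1043 CPM in WT mice 1 to 5. The double knockout had 195, 559, 558, 228 and 153 CPM. No double knockout mouse reached the lowest WT mouse, and within the double knockout mice 2 and 3 stood well above mice 1, 4 and 5. With MLKL lost as well, Gsdmc4 was at 786, 782, 1144, 1075 and 1045.5 CPM, within or above the WT range. The TNFR1 triple knockout had 471, 659, 739, 492 and 626 CPM, which overlaps WT at 1 mouse and overlaps the double knockout. The Xbp1 knockout spanned 631 to 761.9 CPM (median 728) and the Casp8 knockout 522 to 772 CPM (median 677).

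Gsdmc2 was lower than Gsdmc4 in all libraries. It was at 80.6, 85.6, 58.6, 66.2 and 115 CPM in WT and at 22.2, 44.8, 40.8, 22.5 and 21.2 CPM in the double knockout, where the same mice 2 and 3 were the highest. The MLKL triple knockout had 57.4, 46.3, 120, 104 and 91.5 CPM, and the TNFR1 triple knockout 31.4, 58.2, 68.1, 54.0 and 41.4 CPM. In the Xbp1 knockout Gsdmc2 lay in a narrow range of 44.7 to 54.3 CPM, below all 5 WT mice. The Casp8 knockout had 67.4, 68.5, 66.9, 39.2 and 76.2 CPM and overlapped WT.

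Gsdmc3 had levels close to those of Gsdmc2. It was at 86.9, 82.7, 74.7, 72.5 and 114 CPM in WT and at 24.7, 25.1, 43.0, 13.6 and 18.9 CPM in the double knockout, with no overlap. The MLKL triple knockout had 70.9, 48.0, 133, 107 and 95.1 CPM, above all 5 double knockout mice. In the TNFR1 triple knockout it was at 26.99, 53.7, 67.5, 44.0 and 36.2 CPM, below all WT mice. The Xbp1 knockout, at 43.3 to 50.5 CPM, was also below all WT mice, and the Casp8 knockout, at 72.8, 75.5, 72.8, 35.1 and 86.9 CPM, was not.

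Gsdmd, the gasdermin cut by inflammatory caspases, went the other way. It was at 63.4, 64.2, 56.3, 67.6 and 72.6 CPM in WT and at 212, 71.3, 72.5, 137 and 118 CPM in the double knockout. The high values were in mice 1, 4 and 5, the mice with the least Gsdmc4, while mice 2 and 3 lay within the WT range. The TNFR1 triple knockout had 88.3, 76.5, 77.7, 66.4 and 60.6 CPM and the MLKL triple knockout 61.0, 62.8, 65.7, 56.8 and 79.1 CPM, and both overlapped WT. The Xbp1 knockout spanned 52.1 to 81.4 CPM (median 66.7) and the Casp8 knockout 42.5 to 76.8 CPM (median 58.6).

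Casp1, whose product cuts Gsdmd downstream of inflammasomes, had the narrowest span of levels of the 6 over the 30 libraries. It was at 65.8, 63.1, 75.9, 77.6 and 75.2 CPM in WT and at 100.4, 113, 82.3, 118 and 96.6 CPM in the double knockout, and the ranges do not overlap. The TNFR1 triple knockout had 123, 77.6, 73.2, 85.4 and 86.4 CPM, of which mouse 1 is above every double knockout mouse. The MLKL triple knockout had 97.6, 84.0, 72.1, 71.2 and 104 CPM. The Xbp1 knockout spanned 67.5 to 104 CPM (median 87.2) and the Casp8 knockout 66.6 to 85.6 CPM (median 71.5).

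Casp4, whose product senses cytosolic lipopolysaccharide, had the lowest mean of the 6 genes in WT. It was at 30.6, 18.96, 25.98, 30.1 and 14.6 CPM in WT and at 45.5, 70.3, 31.7, 77.4 and 67.0 CPM in the double knockout, with mouse 3 just above the highest WT mouse. The TNFR1 triple knockout had 55.7, 41.5, 32.4, 41.6 and 25.6 CPM. The MLKL triple knockout had 25.96, 29.1, 24.1 and 30.8 CPM in mice 1 to 4 and 53.1 CPM in mouse 5. That mouse had the highest Mlkl of its label. The Xbp1 knockout spanned 24.4 to 37.3 CPM (median 31.3) and the Casp8 knockout 17.8 to 36.6 CPM (median 29.4).

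By mean level, each of the 3 gasdermin C genes was highest in the MLKL triple knockout, at 83.8 ± 31.1 CPM for Gsdmc2, 91.0 ± 32.9 CPM for Gsdmc3 and 966 ± 171 CPM for Gsdmc4 (SD, n = 5). WT followed, and the double knockout was lowest, at 30.3 ± 11.5, 25.1 ± 11.1 and 339 ± 202 CPM. Gsdmd, Casp1 and Casp4 were highest in the double knockout, at 122 ± 57.6, 102 ± 14.2 and 58.4 ± 19.1 CPM, followed in each case by the TNFR1 triple knockout at 73.9 ± 10.7, 89.2 ± 19.8 and 39.4 ± 11.3 CPM. For each of the 6 genes, genotypes next to each other in the order of the means had ranges that overlapped.

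**Figure D1:**
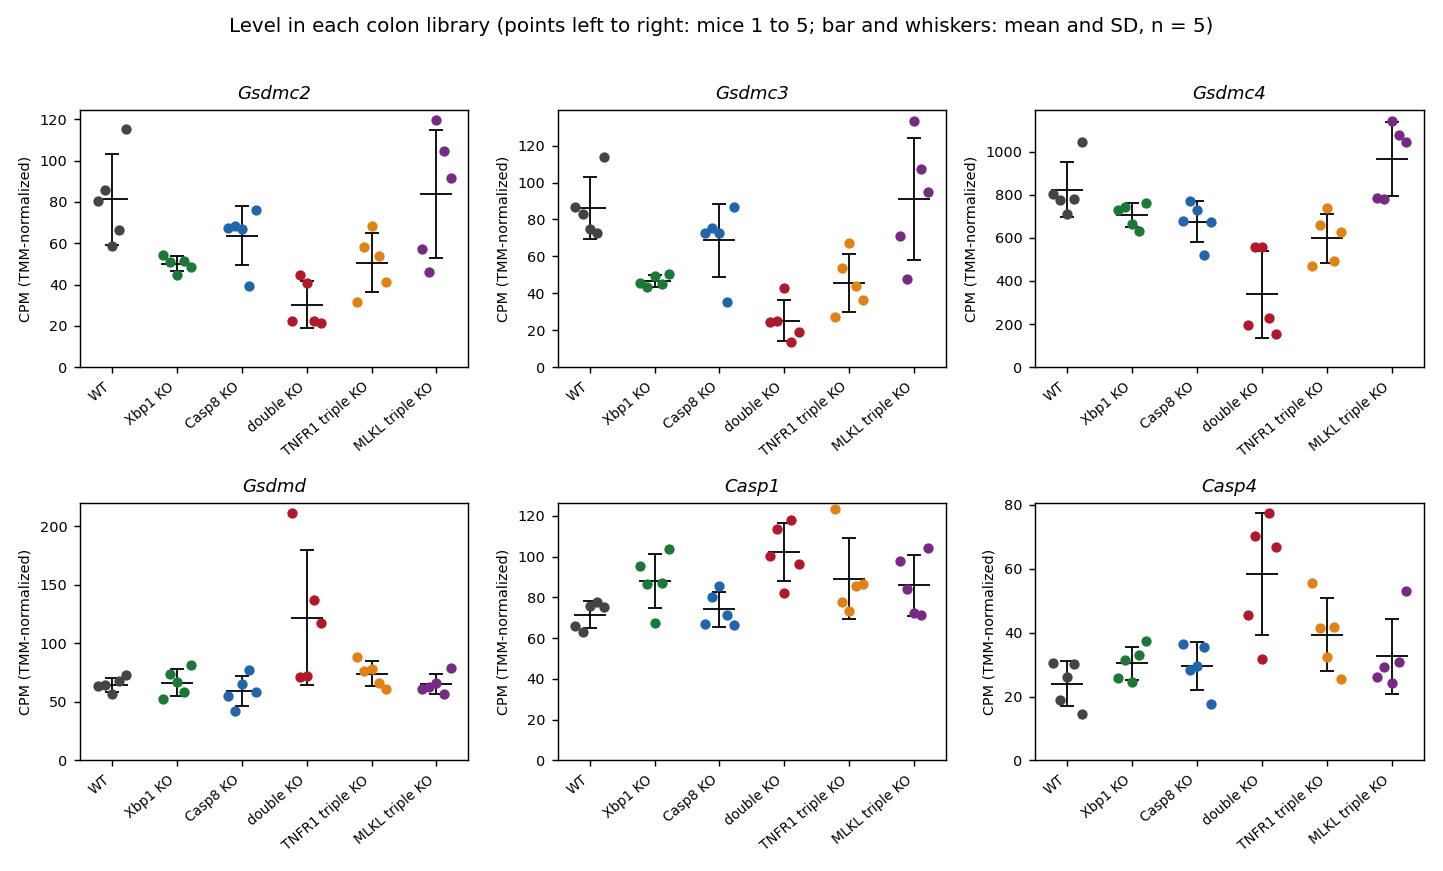
CPM of the 6 genes (vertical axes, each from 0) in each of the 30 colon libraries, grouped by genotype on the horizontal axis. Points are mice and black bars with whiskers are means and SD of 5. The double knockout is lowest for the 3 gasdermin C genes (Gsdmc4 339 against 823 CPM in WT) and highest for Gsdmd, Casp1 and Casp4.

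In the double knockout against WT all 6 genes passed the test, 3 in each direction. The 3 gasdermin C genes fell, and Gsdmd, Casp1 and Casp4 rose. The fit and its adjustment covered all 15458 genes tested, of which 21.3% were called in this comparison, 11.1% higher and 10.2% lower, with a median log2 fold change of 0.01 over all of them. Gsdmc2 fell by 1.43 ± 0.25 on the log2 scale (± SE, adjusted p = 1.42e-04, edgeR quasi-likelihood test with Benjamini-Hochberg adjustment, as for all adjusted p below unless another test is named). Gsdmc3 fell by 1.77 ± 0.26 (adjusted p = 3.05e-05) and Gsdmc4 by 1.28 ± 0.24 (adjusted p = 2.88e-04). Their sum fell from 991 ± 165 to 394 ± 222 CPM (SD, n = 5), or by log2 -1.33 ± 0.23 (adjusted p = 1.54e-04). Gsdmd rose by 0.92 ± 0.20 (adjusted p = 0.00136), Casp1 by 0.51 ± 0.13 (adjusted p = 0.00659) and Casp4 by 1.27 ± 0.24 (adjusted p = 4.25e-04).

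All 6 calls held without each library of either group in turn, without double knockout mouse 1 among them, although Gsdmd then had a log2 fold change of 0.61 (adjusted p = 0.0110). Among males alone, 4 in each group, all 6 were called too. In the same comparison, where 11.1% of all genes rose and 10.2% fell, 5 of the 8 epithelial markers rose. The summed level of these 8 was 6864 to 8296 CPM in the double knockout against 5396 to 6553 CPM in WT. Of 10 markers of differentiated colonocytes 2 rose and 2 fell, not far from those shares, with summed levels of 3953 to 7536 CPM against 5542 to 6865 CPM. Of 5 smooth muscle markers all fell, from 4903 to 6880 CPM in sum to 2449 to 3695 CPM. In colon RNA fewer cells of a type and less RNA per cell cannot be told apart, and the part of cell composition in the fall of the gasdermin C genes was not tested.

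Neither single deletion moved any of the 6 genes past the threshold in the edgeR fit of all 30 libraries. In the Xbp1 knockout against WT, 0 of 6 were called, where 0.0841% of all genes were, 0.0582% higher and 0.0259% lower. Among the 6, 3 had an unadjusted p under 0.05 (Casp1, Gsdmc2 and Gsdmc3), and DESeq2 called 0. Gsdmc2 had a log2 fold change of -0.70 ± 0.24 (adjusted p = 0.191) and Gsdmc3 of -0.88 ± 0.25 (adjusted p = 0.127), and for both the 5 mice lay below all 5 WT mice. A fit of these 2 groups alone called both, with adjusted p of 0.0322 for Gsdmc2 and 0.00212 for Gsdmc3. Gsdmc4 had -0.22 ± 0.23 (adjusted p = 0.745) and Gsdmd 0.04 ± 0.20 (adjusted p = 0.958). In the Casp8 knockout against WT 0 of 6 were called, 0 had an unadjusted p under 0.05 and DESeq2 called 0, where 1.17% of all genes were called, 0.634% higher and 0.537% lower. The 3 gasdermin C genes had log2 fold changes of -0.35 to -0.29 there, and the other 3 of -0.12 to 0.29.

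Against the Xbp1 knockout, 4 of 6 genes were called in the double knockout, where 8.64% of all genes were, 4.77% higher and 3.86% lower. Gsdmc4 fell by 1.06 ± 0.24 (adjusted p = 0.00558) and Gsdmc3 by 0.89 ± 0.27 (adjusted p = 0.0325), while Gsdmd rose by 0.88 ± 0.20 (adjusted p = 0.00600) and Casp4 by 0.94 ± 0.24 (adjusted p = 0.0134). Gsdmc2 had -0.73 ± 0.25 (adjusted p = 0.0621) and Casp1 0.21 ± 0.13 (adjusted p = 0.333). The gasdermin C sum fell by 1.03 ± 0.23 (adjusted p = 0.00580). Gsdmc3 lost its call without Xbp1 knockout mouse 1, 3, 4 or 5 or double knockout mouse 1, 4 or 5, each left out alone (adjusted p of 0.0526 to 0.0946), and Casp4 lost it without double knockout mouse 4 (0.0520). Without Xbp1 knockout mouse 2, whose Casp8 was the lowest of its label, all 4 calls held (adjusted p of 0.00847 to 0.0386). Gsdmd had a log2 fold change of 0.58 without double knockout mouse 1 (adjusted p = 0.0421). A fit of these 2 groups alone did not call Gsdmc4 (adjusted p = 0.0555) or Gsdmd (0.0572).

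Against the Casp8 knockout all 6 genes were called, where 18.4% of all genes were, 9.68% higher and 8.71% lower. Gsdmc2 fell by 1.07 ± 0.25, Gsdmc3 by 1.44 ± 0.27 and Gsdmc4 by 0.99 ± 0.24 (adjusted p = 0.00317, 4.67e-04 and 0.00401). Gsdmd rose by 1.04 ± 0.20, Casp1 by 0.46 ± 0.13 and Casp4 by 0.98 ± 0.24 (adjusted p = 7.66e-04, 0.0164 and 0.00555). The range of each gene in the double knockout overlapped that in the Casp8 knockout. Casp1 lost its call without Casp8 knockout mouse 1 or 5 or double knockout mouse 4 (adjusted p of 0.0505 to 0.0543), and Gsdmc4 in a fit of these 2 groups alone (adjusted p = 0.0508). These comparisons share the double knockout libraries with the one against WT.

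Whether the deletions together differ from the sum of their effects apart was tested as an interaction, for which 1.38% of all genes were called, 0.712% higher and 0.666% lower. Of the 6 genes 0 were called by edgeR, 2 had an unadjusted p under 0.05 (Gsdmc4 and Gsdmd), and DESeq2 called 1. The interaction was 0.997 ± 0.28 on the log2 scale for Gsdmd (adjusted p = 0.0647), -0.77 ± 0.33 for Gsdmc4 (adjusted p = 0.207) and -0.73 ± 0.32 for the gasdermin C sum (adjusted p = 0.226). It was called for Gsdmd without double knockout mouse 2 (1.13, adjusted p = 0.0227), without mouse 3 (1.14, 0.0241) and without Casp8 knockout mouse 4 (1.11, 0.0362). For Gsdmc2, Gsdmc3, Casp1 and Casp4 it was between -0.56 and 0.65, with adjusted p of 0.323 to 0.705.

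**Figure D2:**
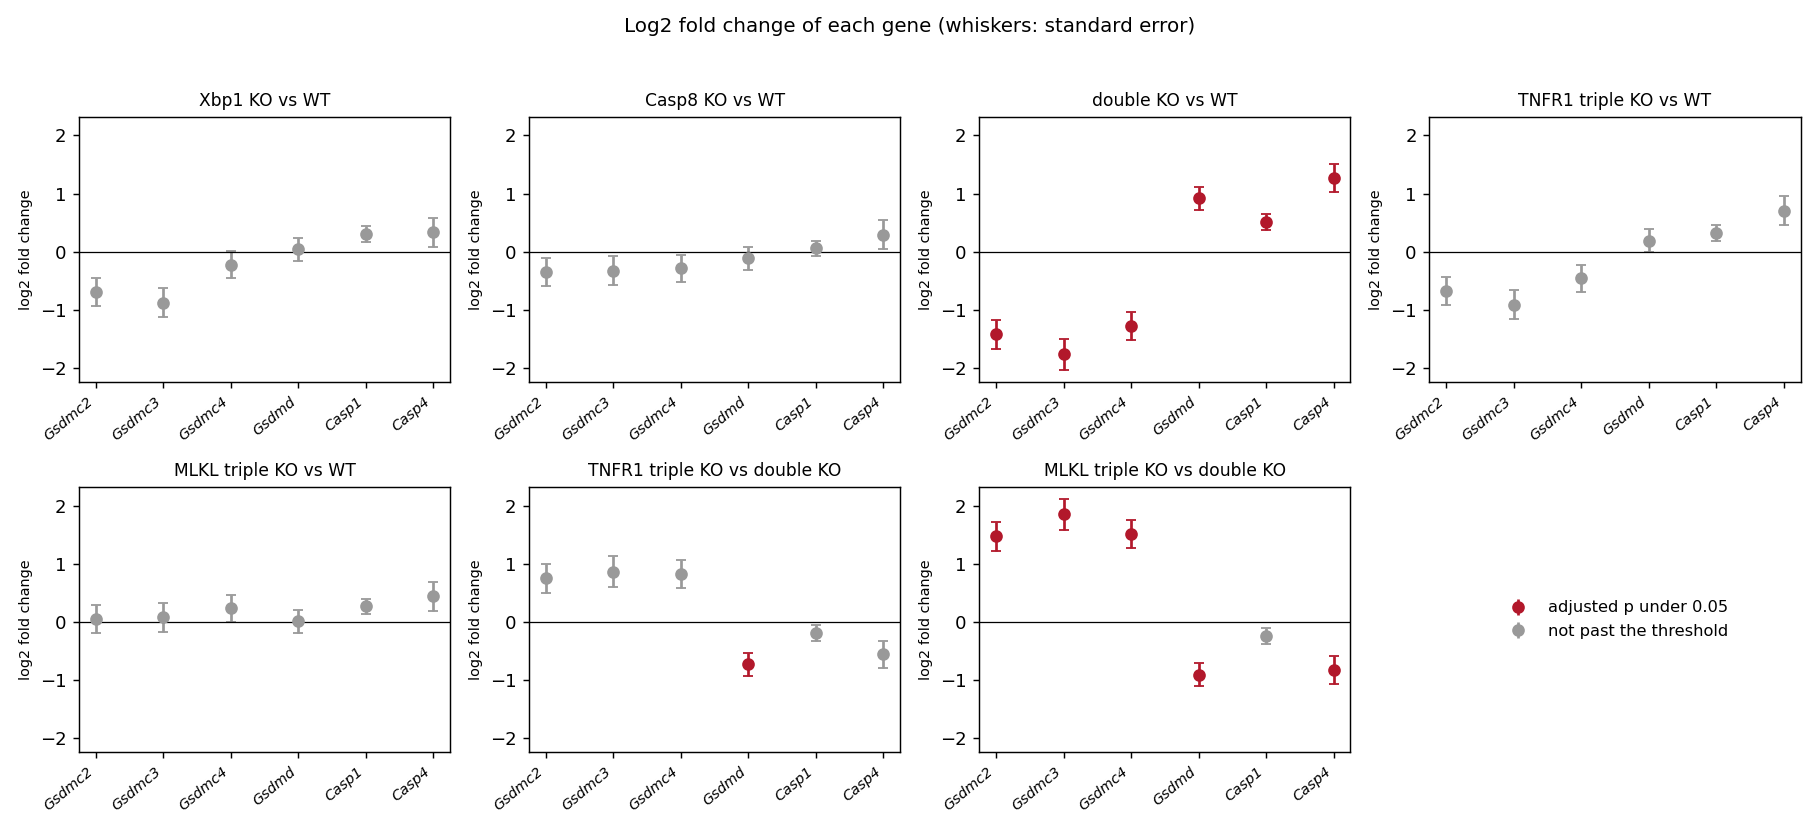
Log2 fold change of the 6 genes (vertical axes) with standard errors as whiskers in 7 comparisons, red where the adjusted p was under 0.05. All 6 points are red for the double knockout against WT (Gsdmc3 -1.77, Casp4 1.27) and 5 for the MLKL triple knockout against the double knockout, with opposite signs, and these comparisons share the double knockout libraries.

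In the MLKL triple knockout against the double knockout 5 of the 6 genes were called, where 7.65% of all genes were, 3.44% higher and 4.21% lower. Gsdmc2 rose by 1.47 ± 0.25 (adjusted p = 4.92e-04), Gsdmc3 by 1.85 ± 0.26 (adjusted p = 1.42e-04) and Gsdmc4 by 1.51 ± 0.24 (adjusted p = 3.83e-04). In every mouse of the MLKL triple knockout each of the 3 was above all 5 mice of the double knockout. Their sum rose from 394 ± 222 to 1141 ± 233 CPM (SD, n = 5), or by log2 1.53 ± 0.23 (adjusted p = 2.57e-04). Gsdmd fell by 0.91 ± 0.20 (adjusted p = 0.00453) and Casp4 by 0.83 ± 0.24 (adjusted p = 0.0290). Casp1 had -0.25 ± 0.13 (adjusted p = 0.266).

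The gasdermin C calls in this comparison held without each library in turn and in each alternative run. Gsdmd held without each library, with a log2 fold change of -0.61 without double knockout mouse 1 (adjusted p = 0.0296), but not in a fit of these 2 groups alone (adjusted p = 0.0571). Casp4 lost its call without double knockout mouse 2, 4 or 5 or MLKL triple knockout mouse 1, 2, 3 or 4 (adjusted p of 0.0602 to 0.100), in a fit of these 2 groups alone (0.0853) and with sex as a term (0.0638). Without MLKL triple knockout mouse 5, whose Mlkl was the highest of its label, Casp4 had -1.08 (adjusted p = 0.00469). The MLKL triple knockout held 5 females and the double knockout 1, so no comparison within 1 sex was run, and with sex as a term 4 of the 6 genes were called.

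In the TNFR1 triple knockout against the double knockout 1 of the 6 genes was called, where 2.35% of all genes were, 1.02% higher and 1.33% lower. Gsdmd fell by 0.73 ± 0.20 (adjusted p = 0.0446). The gasdermin C genes had positive log2 fold changes, of 0.75 ± 0.25 for Gsdmc2 (adjusted p = 0.100), 0.86 ± 0.27 for Gsdmc3 (adjusted p = 0.0774) and 0.82 ± 0.24 for Gsdmc4 (adjusted p = 0.0578), with 0.82 ± 0.23 for their sum (adjusted p = 0.0516). Casp4 had -0.56 ± 0.24 (adjusted p = 0.193) and Casp1 -0.19 ± 0.13 (adjusted p = 0.470). The call of Gsdmd was lost without double knockout mouse 1 (-0.43, adjusted p = 0.238), 4 or 5 or TNFR1 triple knockout mouse 2, 3, 4 or 5 (adjusted p of 0.0732 to 0.119 for the other 6), in a fit of these 2 groups alone (0.236), with sex as a term (0.0846) and with a replicate block (0.0694). Without TNFR1 triple knockout mouse 1, in which Xbp1 was at 109 CPM against 52.2 to 62.9 CPM in the other 4, Gsdmc2, Gsdmc3 and Gsdmc4 were all called, with 0.87, 0.99 and 0.89 (adjusted p = 0.0331, 0.0237 and 0.0281). Without double knockout mouse 2 Gsdmc2 and Gsdmc4 were called (adjusted p = 0.0334 and 0.00696), and without mouse 3 Gsdmc3 and Gsdmc4 (0.0168 and 0.0104).

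Set against WT, 0 of the 6 genes were called by edgeR in either triple knockout. In the TNFR1 triple knockout, where 2.12% of all genes were called (1.16% higher, 0.957% lower), 4 had an unadjusted p under 0.05 (Casp1, Casp4, Gsdmc2 and Gsdmc3) and DESeq2 called 1, Gsdmc3. Gsdmc3 had -0.91 ± 0.25 (adjusted p = 0.0509 by edgeR and 0.0172 by DESeq2), and without TNFR1 triple knockout mouse 3 edgeR called it (-1.10, 0.0215). Casp4 had 0.71 ± 0.25 (adjusted p = 0.120). In the MLKL triple knockout, where 0.854% of all genes were called (0.343% higher, 0.511% lower), 0 of the 6 had an unadjusted p under 0.05 and DESeq2 called 0. The gasdermin C genes had log2 fold changes of 0.04 to 0.23 there and Casp4 had 0.44 ± 0.25 (adjusted p = 0.417). Without MLKL triple knockout mouse 5 that value for Casp4 was 0.19 (adjusted p = 0.777), and without WT mouse 5 it was 0.30. A miss of the threshold does not show that a level returned to that of WT.

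Between the triple knockouts, 0.259% of all genes were called, 0.0906% higher and 0.168% lower. Of the 6 genes edgeR called 0, 3 had an unadjusted p under 0.05 (Gsdmc2, Gsdmc3 and Gsdmc4) and DESeq2 called 1. The TNFR1 triple knockout had log2 fold changes against the MLKL triple knockout of -0.72 ± 0.24 for Gsdmc2 (adjusted p = 0.283), -0.99 ± 0.25 for Gsdmc3 (adjusted p = 0.113) and -0.69 ± 0.23 for Gsdmc4 (adjusted p = 0.306). Gsdmc3 was called without TNFR1 triple knockout mouse 3 (-1.17, adjusted p = 0.0470) and without MLKL triple knockout mouse 2 (-1.15, 0.0305). Among females alone, 4 and 5, the gasdermin C sum was called, at -0.81 (adjusted p = 0.0381). Gsdmd, Casp1 and Casp4 had 0.18, 0.06 and 0.27.

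Gsdmc4 held most of the reads of the 3 gasdermin C genes, 83.2% ± 1.30 in WT (SD, n = 5), with 8.11% ± 1.01 in Gsdmc2 and 8.68% ± 0.454 in Gsdmc3. Stretches found in several copies are more common at the ends of Gsdmc2 and Gsdmc3 than of Gsdmc4. Reads dropped there would lower the shares of Gsdmc2 and Gsdmc3, so these are shares of assigned reads and not of RNA. These shares were compared between each knockout and WT by exact two-sided permutation tests, 15 in all, adjusted together, where 5 mice against 5 cannot give a p below 0.00794. The 3 shares of a library are parts of the same sum, so a rise in any is matched by a fall in the rest. The tests are therefore not independent. In the Xbp1 knockout the share of Gsdmc4 was 87.9% ± 0.811, higher by 4.68 percentage points (exact permutation p = 0.00794, adjusted 0.0397), and that of Gsdmc3 was 5.85% ± 0.544, a difference of -2.82 points (exact permutation p = 0.00794, adjusted 0.0397). In both cases the 5 Xbp1 knockout mice lay on 1 side of all WT mice. The share of Gsdmc2 was 6.26% ± 0.573 there (exact permutation p = 0.0159, adjusted 0.0595). In the TNFR1 triple knockout the share of Gsdmc3 was 6.48% ± 1.27, a difference of -2.20 points (exact permutation p = 0.00794, adjusted 0.0397).

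The other 12 tests of shares missed the threshold, with adjusted p of 0.0595 to 0.762. In the double knockout, where the summed level was lowest, the share of Gsdmc4 was 84.4% ± 4.21 and ranged from 79.3% to 88.9%, which spans the WT range of 82.0% to 84.9%. The 3 calls ended when any 1 library of WT or of the knockout compared was left out (exact permutation, adjusted p of 0.0595 to 0.0794). With 5 mice against 4 the smallest possible p is larger, also for groups that do not overlap, as here. These runs therefore cannot show whether the calls depend on any 1 library. The differences then lay between 4.37 and 5.11, between -3.02 and -2.65 and between -2.51 and -1.85 points. The reads of Gsdmc2 per read of Gsdmc3 were 0.785 to 1.79 (median 0.968), a ratio that shared reads can set.

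**Figure D3:**
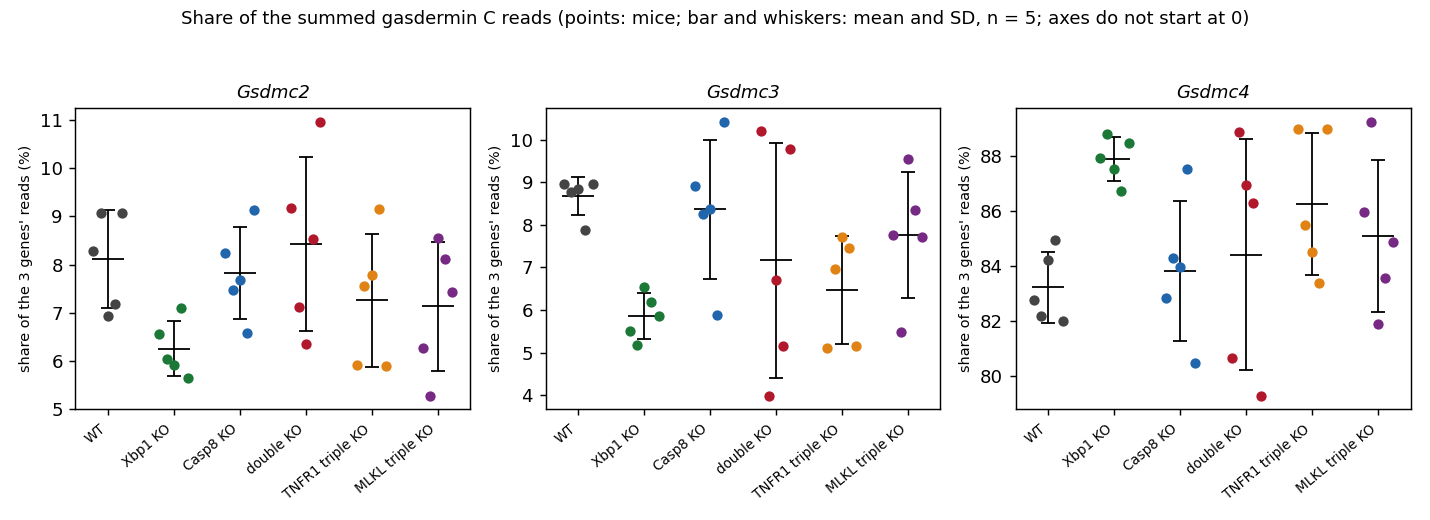
Share of the summed reads of Gsdmc2, Gsdmc3 and Gsdmc4 held by each (vertical axes in %, not from 0), by genotype on the horizontal axis. Points are mice and black bars with whiskers are means and SD of 5. In the Xbp1 knockout Gsdmc4 held 87.9% against 83.2% in WT, with no overlap between the groups.

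Of the 10 gasdermins listed, 6 passed the filter on low counts: the 4 above, Gsdme and Gsdma. In the double knockout against WT 1 of the 6 rose and 3 fell, with a median log2 fold change of -0.55, where 21.3% of all genes were called. The genes called are the 4 described above, so the count says nothing more about the list. Gsdme, another gasdermin, was at 7.8 to 12.1 CPM in WT and 9.4 to 14.9 CPM in the double knockout, a log2 fold change of 0.18 ± 0.19 (adjusted p = 0.544), and its locus overlaps Mpp6. Gsdma, a gasdermin of skin and upper gut, was at 0.46 to 2.34 CPM in WT and 0.60 to 6.21 CPM in the double knockout. Over all 30 libraries Gsdma2 had 25 reads, Gsdma3 had 2 and Pjvk had 4.

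Of the 3 inflammatory caspases 2 rose in the double knockout against WT, where 11.1% of all genes did. They are the 2 described, picked with earlier results known, so the count says nothing more about the list. Casp12, a neighbour of Casp4 on chromosome 9, was at 11.7 to 21.4 CPM in WT and 9.96 to 23.99 CPM in the double knockout, a log2 fold change of 0.18 ± 0.20 (adjusted p = 0.570). The starts of Casp1 and Casp4 were read from 250 bases before to 50 after, from RefSeq (GRCm38.p6), which holds an entry for Casp1, Casp4 and Gsdmc3. They are shown because these neighbours rose together, with capitals at matches to the NF-kB motif on either strand:
Casp1, chr9:5298267-5298566, plus strand: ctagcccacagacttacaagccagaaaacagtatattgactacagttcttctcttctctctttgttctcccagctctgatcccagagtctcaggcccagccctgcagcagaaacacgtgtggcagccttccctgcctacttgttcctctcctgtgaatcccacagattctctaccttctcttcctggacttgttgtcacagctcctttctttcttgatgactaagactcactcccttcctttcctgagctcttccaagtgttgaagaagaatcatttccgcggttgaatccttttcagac
Casp4, chr9:5308599-5308898, plus strand: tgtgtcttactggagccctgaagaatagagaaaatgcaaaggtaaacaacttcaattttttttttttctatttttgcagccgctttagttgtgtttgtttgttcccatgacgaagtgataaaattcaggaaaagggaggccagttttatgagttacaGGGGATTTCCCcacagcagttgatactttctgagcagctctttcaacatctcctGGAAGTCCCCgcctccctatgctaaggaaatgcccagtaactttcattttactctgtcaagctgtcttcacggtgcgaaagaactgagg
RefSeq lists another start of Casp4 shortly downstream, whose window holds the same matches. The window shown held matches that overlap each other at 93 and 92 bases before the start and 1 more at 39, and those of Casp1 and Gsdmc3 held none. This motif was chosen after the sequence was read, and 8.46% of 32851 promoters of the same length hold it. The STAT6 motif and the interferon response element, GAAA repeated after a gap of 2 bases, searched on both strands, were in none of these windows and in 6.95% and 3.44% of all promoters. A match is a string of letters and shows no binding, and a missing one says nothing of the factor.

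Casp6, a caspase of apoptosis, was at 21.1 to 30.4 CPM in WT and 22.3 to 37.9 CPM in the double knockout (0.28 ± 0.13, adjusted p = 0.127). The initiator caspases Casp2 and Casp9 were at 22.8 to 28.9 CPM and 14.5 to 19.2 CPM in WT and at 21.2 to 33.8 CPM and 13.1 to 18.9 CPM in the double knockout, with log2 fold changes of 0.07 ± 0.15 and -0.11 ± 0.15 (adjusted p = 0.790 and 0.624). Casp14, known as a caspase of cornified skin, was at 60.5, 71.3, 54.3, 60.1 and 77.5 CPM in WT, and at 22.5 to 50.3 CPM in all mice of the Xbp1 and Casp8 knockouts, below every WT mouse. In the double knockout it was at 150, 24.5, 66.7, 84.6 and 113 CPM, with mouse 2 low and mouse 1 the highest. The TNFR1 triple knockout had 31.0 to 47.8 CPM and the MLKL triple knockout 37.5 to 51.9 CPM, both also below every WT mouse. The interaction of the deletions was called for Casp14 (1.77 ± 0.37 on the log2 scale, adjusted p = 0.0202), but not with sex as a term (0.0626) or in males alone (0.265). Against the double knockout it fell by 1.24 ± 0.26 with the loss of TNFR1 (adjusted p = 0.0130) and by 0.97 ± 0.26 with that of MLKL (adjusted p = 0.0180). Without double knockout mouse 1 the former call ended (adjusted p = 0.0687), as in a fit of these 2 groups alone (0.163). The latter ended with sex as a term (0.132), in such a fit (0.115) and without double knockout mouse 1 or 5 or MLKL triple knockout mouse 3 (0.0524 to 0.0956). Against WT the double knockout had 0.45 ± 0.26 (adjusted p = 0.219), and 0.67 without its mouse 2 (0.0152).

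**Figure D4:**
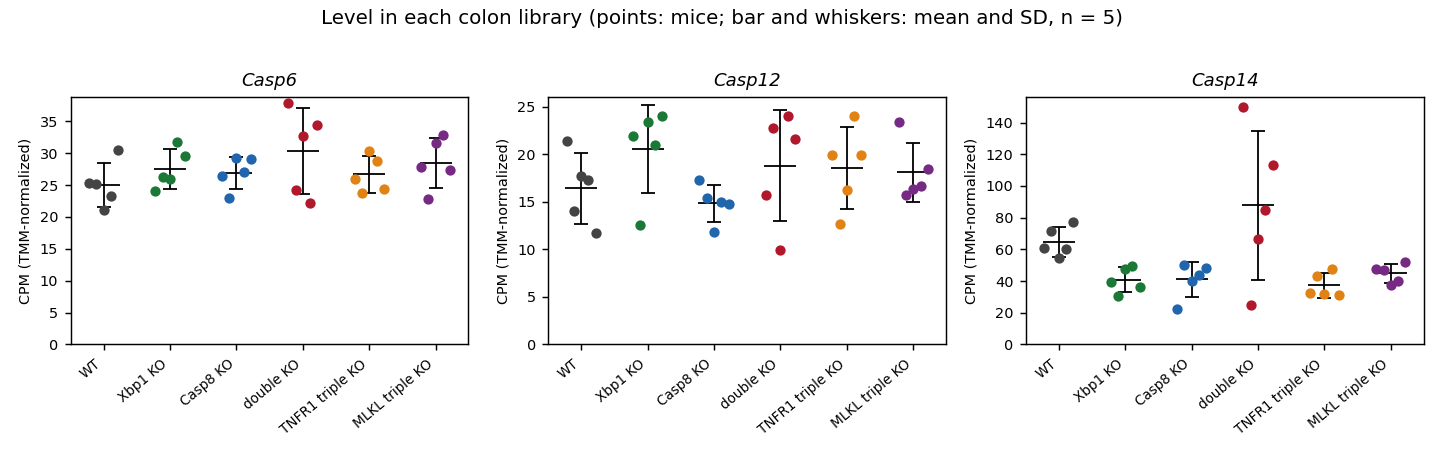
CPM of Casp6, Casp12 and Casp14 (vertical axes, each from 0) in each of the 30 colon libraries, by genotype on the horizontal axis. Points are mice and black bars with whiskers are means and SD of 5. Casp14 of double knockout mice spans 24.5 to 150 CPM, and the levels of Casp6 and Casp12 in these mice overlap those in WT.

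Inflammasome genes upstream of Casp1 were followed in a list of 18, of which 14 were tested. In the double knockout against WT 4 of 14 rose, where 11.1% of all genes were called higher and 10.2% lower, with a list median of 0.22 against 0.01 over all genes. Pycard, the adaptor that joins sensors to caspase-1, was at 168 to 235 CPM in WT and 240 to 302 CPM in the double knockout and rose by 0.47 ± 0.09 (adjusted p = 2.54e-04). Zbp1, a sensor of left-handed nucleic acids, was at 4.62 to 9.79 CPM and 12.2 to 73.0 CPM and rose by 2.70 ± 0.73 (adjusted p = 0.00827). Naip5, a receptor for bacterial flagellin, rose by 0.50 ± 0.17 (adjusted p = 0.0405) and Dhx15 by 0.26 ± 0.09 (adjusted p = 0.0310). In the MLKL triple knockout against the double knockout, where 3.44% of all genes were called higher and 4.21% lower, 1 of the 14 fell, which was Pycard (-0.28 ± 0.09, adjusted p = 0.0425).

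Of the substrates and effectors of pyroptosis 9 were listed and 8 tested. Il1b passed the filter on low counts through libraries other than those of WT, so no count of calls is given for this list. Il1b, a cytokine matured by caspase-1, was at 0.440, 0, 1.15, 2.56 and 0.780 CPM in WT and at 10.3, 9.72, 6.97, 53.4 and 20.04 CPM in the double knockout, without overlap. Its log2 fold change was 4.29 ± 0.86 (adjusted p = 6.60e-04), a description only, since libraries where it is high carried it through the filter. Il18, another cytokine that caspase-1 matures and that epithelium makes, was at 137 to 209 CPM in WT and 77.7 to 144 CPM in the double knockout and fell by 0.73 ± 0.21 (adjusted p = 0.0111). Il18bp, which binds and blocks that cytokine, rose by 0.63 ± 0.18 (adjusted p = 0.0119), and Ninj1, which ruptures the membrane after the pores open, by 0.46 ± 0.14 (adjusted p = 0.0205). In the MLKL triple knockout against the double knockout Il18 rose (0.71 ± 0.21, adjusted p = 0.0291) and the receptor antagonist Il1rn fell (-0.70 ± 0.16, adjusted p = 0.00616). Il1b had -3.76 ± 0.82 there (adjusted p = 0.00433), with the same limit.

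Of 15 apoptosis regulators, all tested, 4 rose in the double knockout against WT, where 11.1% of all genes did, with a list median of 0.35. They were Birc3, an inhibitor of apoptosis (0.75 ± 0.17, adjusted p = 0.00177), the pore-forming Bak1 (0.63 ± 0.17, adjusted p = 0.00660) and Bax (0.77 ± 0.20, adjusted p = 0.00702), and Pmaip1, which releases them (0.83 ± 0.28, adjusted p = 0.0323). In the MLKL triple knockout against the double knockout 1 of the 15 fell, beside 4.21% of all genes, which is near the share over all genes. That gene was Bak1 (-0.55 ± 0.16, adjusted p = 0.0356).

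Cytokine responses known to act on these genes were listed too. Of 16 interferon gamma response genes tested all 16 rose in the double knockout against WT, where 11.1% of all genes did, with a median of 2.46. Gbp2, a guanylate-binding protein that helps caspase-11 to reach bacterial lipopolysaccharide, was at 15.2, 12.8, 18.4, 23.1 and 30.7 CPM in WT and at 150, 65.0, 29.7, 462 and 270 CPM in the double knockout, and rose by 3.29 ± 0.61 (adjusted p = 2.86e-04). Mouse 3, the lowest in Gbp2, was also the lowest double knockout mouse in Casp1 and Casp4. The order of the mice was otherwise not the same. Mouse 2, the next lowest in Gbp2, had 113 CPM of Casp1 and 70.3 CPM of Casp4. Mouse 1, with more Gbp2, had 100.4 and 45.5 CPM. Of the same 16 genes 6 fell in the MLKL triple knockout against the double knockout, where 4.21% of all genes did. In the TNFR1 triple knockout against the double knockout 1 of the 16 fell, where 1.33% of all genes did. Gbp2 fell in both (-2.35 ± 0.58, adjusted p = 0.0102, and -2.16 ± 0.57, adjusted p = 0.0397). Of 17 type I interferon response genes 2 rose in the double knockout against WT, with a median of 1.37. That share is near the 11.1% of all genes called higher, so the count is no result about the list.

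Of the 15 listed genes of the type 2 cytokine response, to which gasdermin C is known to respond, 5 were tested. Retnlb passed the filter on low counts through groups other than WT, so no count of calls is given for this list. Clca1, a secreted protein of goblet cells, was at 1009 to 1241 CPM in WT and 361 to 796 CPM in the double knockout and fell by 0.98 ± 0.18 (adjusted p = 3.14e-04). The receptor chains Il13ra1 and Il4ra rose by 0.41 ± 0.11 (adjusted p = 0.00677) and 0.63 ± 0.22 (adjusted p = 0.0376). Retnlb is made by goblet cells in worm infection. It had 0 reads in all 5 WT mice, where 3 reads would be at most 0.780 CPM, and 3.58 to 16.8 CPM in the double knockout. Clca1 of the MLKL triple knockout was at 1392 to 1806 CPM, above all double knockout mice, and rose by 1.50 ± 0.19 against them (adjusted p = 3.10e-05).

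Some lists of markers of blood-derived cells moved in the same comparisons, where 11.1% of all genes rose in the double knockout against WT and 4.21% fell in the MLKL triple knockout against the double knockout. Of 12 monocyte and macrophage markers 9 rose in the double knockout against WT, with summed levels of 401 to 876 CPM against 282 to 453 CPM, and 4 fell in the MLKL triple knockout against the double knockout, to 297 to 643 CPM. Of 8 neutrophil markers 3 passed the filter on low counts, S100a8 and S100a9 of them through libraries other than those of WT, so no count of calls is given for that list. S100a8, a calcium-binding protein of neutrophils, was at 32.0, 4.603, 7.57, 152 and 69.0 CPM in double knockout mice 1 to 5 and at most 1.40 CPM in WT, and 3 markers of that list were at 0 in all WT mice. Double knockout mice 1, 4 and 5, with the most S100a8, were those with the least Gsdmc4 and the most Gsdmd. All 5 plasma cell markers rose, from 258 to 925 CPM in sum to 1927 to 9689 CPM. The 4 B cell markers tested had a median of -0.09 in the double knockout against WT, with adjusted p-values from 0.451 for Cd79b to 0.927 for Ms4a1. In the MLKL triple knockout against the double knockout 1 of the 4, Cr2, rose (2.17 ± 0.62, adjusted p = 0.0295), where 3.44% of all genes did. The part of these cells in the rise of Gsdmd, Casp1 and Casp4 was not tested.

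Across the 30 libraries the 6 genes fell into opposed sets, described here by Pearson's r of log2 CPM, with no test, since libraries of 1 genotype share it. The gasdermin C sum had r = -0.76 with Gsdmd, and Gsdmc4 had r = -0.64 with Casp4 and -0.46 with Casp1. Gsdmd had r = 0.57 with Casp4 and 0.49 with Casp1, and Casp1 had r = 0.71 with Casp4. The 3 double knockout mice with a gasdermin C sum of 193 to 264 CPM had 118 to 212 CPM of Gsdmd, and all other libraries lay below 100 CPM of Gsdmd.

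**Figure D5:**
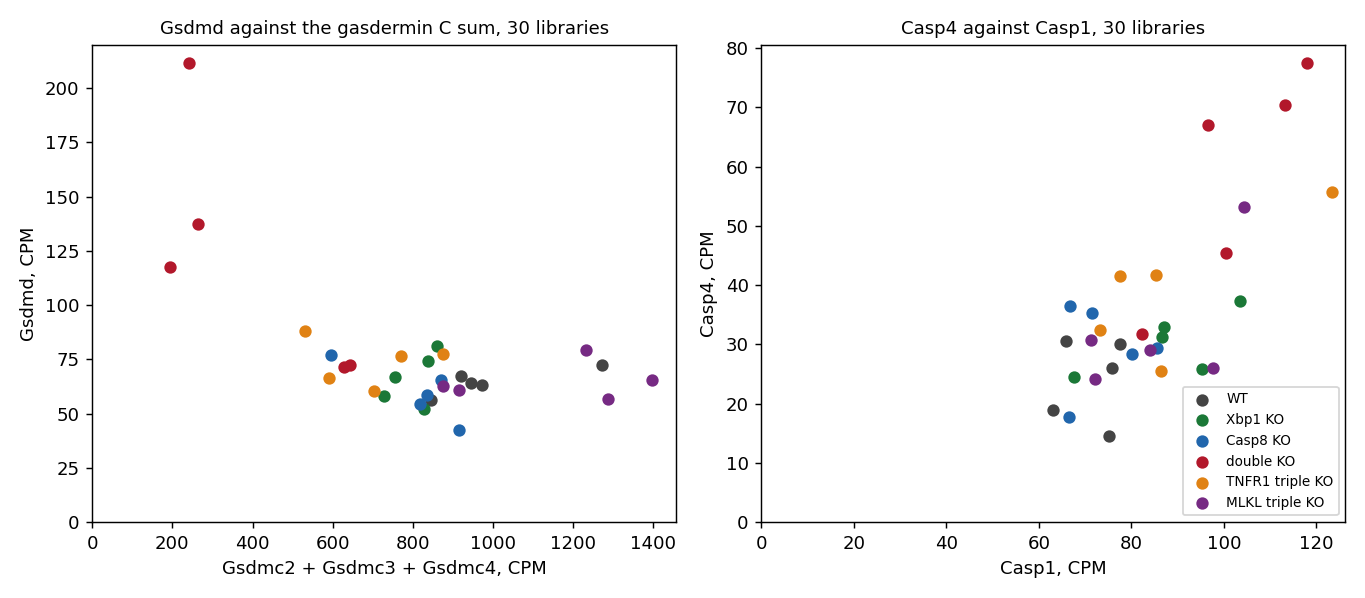
Left, Gsdmd (vertical axis, CPM) against the sum of Gsdmc2, Gsdmc3 and Gsdmc4 (horizontal axis, CPM). Right, Casp4 (vertical axis, CPM) against Casp1 (horizontal axis, CPM). Each point is 1 of 30 libraries, coloured by genotype, and 3 double knockout mice stand apart on the left with a gasdermin C sum of 193 to 264 CPM and Gsdmd of 118 to 212 CPM.

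The genes most like the 6 in pattern were taken as the 5 of highest r with each over the 30 libraries, among all genes tested. For the gasdermin C sum they were Smpx (r = 0.91), Gm5485 (0.89), Hao2 (0.88), Dio1 (0.87) and Sh3bgr (0.87). Hao2 oxidizes hydroxy acids in peroxisomes, and Dio1 activates thyroid hormone. For Gsdmd they were Myo15b (r = 0.88), Pfkp (0.88), 9530082P21Rik (0.87), Grina (0.86) and Igsf5 (0.86), where Pfkp is an enzyme of glycolysis and Igsf5 a junction protein. For Casp1 they were Tbrg1 (r = 0.86), Zbp1 (0.83), F2rl1 (0.83), Psme1 (0.83) and Upp1 (0.82), where Psme1 is an activator of the proteasome. For Casp4 they were Duoxa2 (r = 0.87), Duoxa1 (0.86), Mov10 (0.85), Fyb (0.84) and Nfkbiz (0.83). Duoxa1 and Duoxa2 mature the oxidases that release hydrogen peroxide at the gut surface, and Nfkbiz is a nuclear regulator of NF-kB targets.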

How the data were processed

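The authors deposited estimated counts (reads assigned to Ensembl genes) from Lexogen 3′ QuantSeq FWD libraries of 2 µg total RNA per mouse (RIN above 7), per the labels' protocols. The tools named are, per the submitters' processing notes, featureCounts 2.01, Subread, cutadapt 3.2 and R 4.0.0, with GRCm38 (mm10). What the aligner and strand settings and the annotation release were, and how reads that fit several genes were treated is not given in the sources used here, so antisense partners cannot be told apart and reads that fit several gasdermin C copies may have been dropped or assigned to 1 of them. No molecular identifiers are named, so reads can hold PCR copies and limits from a count of 0 cover counting error only.

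Of 55579 features 92 spike-ins with 0 reads were left out. Symbols were matched by identifier for 55141 of 55487 genes, and those without held 0.019% of the reads. Counts were rounded, which changed totals by at most 0.00321%. Genes kept by filterByExpr (15458, 27.9%) entered 1 fit of all 30 libraries with a coefficient per genotype (R 4.3.3, edgeR 4.0.16, TMM, quasi-likelihood F test), adjusted by Benjamini-Hochberg over all genes in each of 11 comparisons, with a threshold of 0.05. For the gasdermin C sum the rows of Gsdmc, Gsdmc2, Gsdmc3 and Gsdmc4 were joined and 15456 genes tested. The SE is the log2 fold change divided by the square root of F. All groups share 1 dispersion per gene, although their spreads differ. Simulated data were used to test the script. Sequences came from GRCm38 by the GENCODE annotation and from RefSeq.

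The 6 genes, the gene lists and the comparisons were chosen with earlier results of these data known. The text names the 6 genes, gasdermin and caspase genes of the lists, the targeted genes, up to 4 genes of smallest p of each other list, and the 5 genes of highest correlation. Some listed genes and 1 motif are not reported here. Replicates are separate mice. Alternatives were DESeq2 size factors, no filter or a stricter one (1 CPM in 25 libraries), a fit of only the groups compared, DESeq2 1.42.0, a replicate block, sex (called from Xist and Y-linked genes) as a term, and each library left out. Fits in males alone and females alone were chosen after seeing the data.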

Additional observations from a re-analysis of the deposited data

Results flagged for a closer look

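Among the 42 gene and genotype groups checked for a library far from the other 4 of its group, 5 held one, and chance gives about 1 in 20. In Casp8 knockout mouse 4 Gsdmc2 was at 39.2 CPM against 66.9 to 76.2 CPM in the other 4, and Gsdmc3 at 35.1 CPM against 72.8 to 86.9 CPM. The same mouse had 522 CPM of Gsdmc4, the lowest of its group, 76.8 CPM of Gsdmd, the highest, and 20.1 CPM of Il1b against at most 2.02 CPM in the other 4. In WT mouse 5 Gsdmc4 was at 1043 CPM against 712 to 804 CPM. Casp1 was at 123 CPM in TNFR1 triple knockout mouse 1 against 73.2 to 86.4 CPM, and that mouse also had 109 CPM of Xbp1 and 128 CPM of Gbp2. Casp4 was at 53.1 CPM in MLKL triple knockout mouse 5 against 24.1 to 30.8 CPM, beside 10.7 CPM of Mlkl and 102 CPM of Zbp1.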

How the results depend on the processing

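The 6 calls in the double knockout against WT, 3 higher and 3 lower, were the same count in every alternative run. Elsewhere the number of the 6 genes called moved. It was 2 in place of 0 for the Xbp1 knockout against WT in a fit of only these groups. For the TNFR1 triple knockout against WT it was 1 in place of 0 with no filter, a stricter filter, only these groups, DESeq2 and the replicate block. Against the double knockout it was 3 in place of 1 with no filter and with DESeq2, and 0 with only these groups and with the sex term. For the MLKL against the double knockout it was 3 in place of 5 with only these groups. Between the triple knockouts it was 1 in place of 0 with no filter, DESeq2 and females only, and for the interaction 1 in place of 0 with no filter and DESeq2. The cause was not tested. The gasdermin C sum passed the threshold for the TNFR1 triple against the double knockout with no filter (0.81), a stricter one (0.82), DESeq2 (0.82) and the replicate block (0.86), and between the triple knockouts in females only (-0.81). These values changed sign, none of them called: Gsdmd in the Xbp1 knockout against WT in males only (-0.28), Casp4 in the Casp8 knockout against WT in males only (-0.028) and Gsdmd in the MLKL triple knockout against WT with the stricter filter (-0.00452).

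Without each library in turn, the number called ranged from 0 to 1 (TNFR1 triple knockout against WT, between the triple knockouts, interaction), from 2 to 5 (double against Xbp1 knockout) and from 0 to 4 (TNFR1 triple against double knockout). The gasdermin C sum in the last ranged from 0.65 to 1.07. Shares against WT ranged from -3.02 to -2.65 points (Gsdmc3) and 4.37 to 5.11 (Gsdmc4) in the Xbp1 knockout, from -2.51 to -1.85 (Gsdmc3) in the TNFR1 triple knockout, from -0.617 to 0.0215 (Gsdmc2), -0.822 to 0.307 (Gsdmc3) and -0.329 to 1.44 (Gsdmc4) in the Casp8 knockout, and from -0.314 to 0.835 (Gsdmc2) in the double knockout. Uncalled log2 fold changes that crossed 0 ranged from -0.045 to 0.11 (Gsdmd, Xbp1 knockout against WT), -0.0039 to 0.086 (Casp1, Casp8 knockout against WT), -0.12 to 0.20 (Gsdmc2, MLKL triple knockout against WT), -0.10 to 0.24 (Gsdmc3, the same), -0.072 to 0.052 (Gsdmd, the same) and -0.089 to 0.13 (Casp1, between the triple knockouts).

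Replicate numbers did not pair the mice: deviations of same-numbered libraries correlated at a mean of 0.0187 and of different numbers at -0.00434, and 7 of 30 libraries matched their own number best. With the replicate block the interaction called 73 genes in place of 213, and no other all-gene count moved by over 1.5 times.

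Counts over all genes that moved by over 1.5 times were as follows. The 13 genes (Xbp1 knockout against WT) became 28 with no filter, 225 with only these groups, 135 with DESeq2, 8 with the sex term, 2 with males only and 2 to 14 without 1 library. The 181 genes (Casp8 knockout against WT) became 435 with only these groups, 356 with DESeq2, 101 with the sex term, 24 with males only and 88 to 188 without 1 library. The 1335 genes (double against Xbp1 knockout) became 797 with only these groups, 737 with males only and 748 to 1681 without 1 library. The 2842 genes (double against Casp8 knockout) became 1570 with only these groups and 1298 with males only. The 327 genes (TNFR1 triple knockout against WT) became 560 with DESeq2, 74 with the sex term and 77 to 507 without 1 library. The 132 genes (MLKL triple knockout against WT) became 209 with no filter, 306 with only these groups, 291 with DESeq2, 11 with the sex term and 9 to 131 without 1 library. The 363 genes (TNFR1 triple against double knockout) became 21 with only these groups and 63 to 931 without 1 library. The 1182 genes (MLKL triple against double knockout) became 490 with only these groups and 720 to 1331 without 1 library. The 40 genes (between the triple knockouts) became 72 with no filter, 19 with only these groups, 86 with DESeq2 and 20 to 54 without 1 library. The 213 genes (interaction) became 107 with only these groups, 495 with DESeq2, 55 with the sex term, 37 with males only and 41 to 465 without 1 library.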
